A study of Mus musculus with 2 samples.

Results

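The genes described here carry a calcium signal from the endoplasmic reticulum to the nucleus: the inositol trisphosphate receptors Itpr1 and Itpr2, the store sensor Stim1, the entry channel Orai1, the calcineurin subunits Ppp3ca, Ppp3cb and Ppp3r1, and the transcription factors Nfatc1, Nfatc2 and Nfatc3. They were chosen by name, and every probe set annotated to 1 of these genes alone was taken. Of the 10 genes, 9 had such probe sets, 24 in all, out of 12393 genes with a probe set of their own. Itpr1 was not analysed here. The signals came from 2 single-channel Affymetrix arrays, 1 of marginal zone B cells and 1 of follicular B cells. Both populations were wild type and came from the spleens of female C57BL/6 mice, whose age the labels do not give. Cells from 3 mice were enriched on beads against B220, stained for CD21 and CD23, and sorted as CD21 high with intermediate CD23 for marginal zone cells or as CD23 high with intermediate CD21 for follicular cells. Sorted cells were pooled before lysis, so neither array holds the spread between mice, and whether the same animals gave both populations is not stated in the labels.

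In B cells, engagement of the antigen receptor activates phospholipase C gamma, which makes inositol trisphosphate. Inositol trisphosphate receptors then release calcium from the endoplasmic reticulum, STIM1 senses the emptied store, and ORAI1 lets calcium in through the plasma membrane. Calcium and calmodulin activate the phosphatase calcineurin, a catalytic A subunit bound to a regulatory B subunit, which dephosphorylates NFAT proteins so that they enter the nucleus. Marginal zone B cells are known for early responses to blood-borne antigen, and follicular B cells for responses that use T cell help.

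Values are MAS5 signals after both arrays were scaled to the same trimmed mean, and all ratios are marginal zone over follicular. Signals under 12.7, the median of all values on both arrays, were raised to that floor because dim MAS5 signals have no reliable order. Measured probe sets are those with at least 1 signal above the floor, and a fold written "at least" has 1 array below the floor and is relative to it. With 1 array per population the values carry no replicate error and no test was possible, so 2-fold serves as a threshold of size only. Precision is limited throughout by the number of arrays. Signals of different probe sets were not set against each other, since probe sets differ in brightness for the same amount of RNA. On bulk samples such as these, fewer cells that express a gene and less RNA per cell cannot be told apart.

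The sort was seen in its own gate genes. Cr2, which encodes CD21, had a signal of 889.9 in marginal zone and 277.9 in follicular cells, and Fcer2a, which encodes CD23, had 89.6 in marginal zone and 726.8 in follicular cells. Among 6 B cell markers, 5 had a probe set and all 5 were measured. By the brightest probe set, 4 of them had lower signals in marginal zone cells. Ms4a1 was at 1878 in marginal zone and 1754 in follicular B cells, and Pax5 was dim, at 16.6 in marginal zone and 20.7 in follicular cells. The antigen receptor chains Cd79a and Cd79b had log2 ratios of -0.77 and -0.93. They lay on the same side as the calcineurin genes and Nfatc3 described below. Cd22 had -0.38 by its brightest probe set, on that side too, and 0.17 by its other measured one. Over the 7695 measured genes the median log2 ratio was -0.03, and the middle 50% ran from -0.38 to 0.32. Different probe sets of 1 gene had a pooled SD of 0.43 on the log2 ratio scale, which covers probe behaviour only.

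The promoters of 4 members are shown because these genes carry the results below: Itpr2 was the member with the highest ratio, Nfatc3 the one with the lowest, and Ppp3cb and Ppp3r1 encode calcineurin subunits that lay on the follicular side by their brightest probe sets. Each window runs 5′ to 3′ from 250 bases before to 50 bases after an annotated start, from RefSeq on GRCm38.p6. Capitals mark GGAAA, the core that NFAT proteins bind, or its reverse complement TTTCC. The GGAA within it is also the core of Ets family sites.
Itpr2, chr6:146502174-146502473, minus strand: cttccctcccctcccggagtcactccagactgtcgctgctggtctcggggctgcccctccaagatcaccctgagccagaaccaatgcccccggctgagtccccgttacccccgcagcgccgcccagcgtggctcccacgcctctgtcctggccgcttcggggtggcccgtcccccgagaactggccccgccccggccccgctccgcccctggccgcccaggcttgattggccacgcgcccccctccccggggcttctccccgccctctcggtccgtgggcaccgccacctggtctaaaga
Ppp3cb, chr14:20546524-20546823, minus strand: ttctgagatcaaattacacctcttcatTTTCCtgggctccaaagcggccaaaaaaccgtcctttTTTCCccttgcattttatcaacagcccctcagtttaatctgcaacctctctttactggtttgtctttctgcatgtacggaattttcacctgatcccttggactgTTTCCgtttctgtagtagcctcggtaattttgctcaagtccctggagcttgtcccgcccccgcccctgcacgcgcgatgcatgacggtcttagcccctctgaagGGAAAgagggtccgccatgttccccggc
Ppp3r1, chr11:17159048-17159347, plus strand: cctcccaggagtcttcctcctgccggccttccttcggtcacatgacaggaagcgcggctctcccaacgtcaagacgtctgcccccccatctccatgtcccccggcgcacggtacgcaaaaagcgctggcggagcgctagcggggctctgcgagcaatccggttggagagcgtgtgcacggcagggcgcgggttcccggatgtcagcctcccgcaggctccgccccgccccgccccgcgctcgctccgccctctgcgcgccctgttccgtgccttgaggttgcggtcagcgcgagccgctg
Nfatc3, first start, chr8:106058568-106058867, plus strand: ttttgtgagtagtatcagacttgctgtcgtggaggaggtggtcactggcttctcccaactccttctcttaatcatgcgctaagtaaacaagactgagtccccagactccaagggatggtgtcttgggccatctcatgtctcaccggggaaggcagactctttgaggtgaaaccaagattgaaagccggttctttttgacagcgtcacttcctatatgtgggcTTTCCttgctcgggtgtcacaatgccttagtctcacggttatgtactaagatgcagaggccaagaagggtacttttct
Nfatc3, second start, chr8:106059340-106059639, plus strand: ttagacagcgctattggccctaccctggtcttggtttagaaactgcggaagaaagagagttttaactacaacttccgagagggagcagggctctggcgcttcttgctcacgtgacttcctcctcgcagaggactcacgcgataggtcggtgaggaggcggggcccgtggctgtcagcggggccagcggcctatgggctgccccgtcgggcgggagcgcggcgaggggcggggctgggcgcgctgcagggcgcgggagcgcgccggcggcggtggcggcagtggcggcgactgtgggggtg
The Ppp3cb window held the core 4 times, 3 times as TTTCC upstream of the start and once as GGAAA from base 23 of the transcript. The window of the first Nfatc3 start held it once, 28 bases upstream, and the windows of Itpr2, Ppp3r1 and the second Nfatc3 start did not hold these letters. Windows of 7 members were used here, 9 in all, and 4 of the 9 held the core, against 61.3% of all 32851 windows. The members' windows were restricted by chromosome and the full set was not. Base composition also varied, with a G and C content of 73.3% for Itpr2, 70.7% for Ppp3r1, 51.0% for Ppp3cb, and 48.7% and 68.3% for the first and second Nfatc3 starts. The median over all windows was 52.7%. The arrays measured transcripts and not the binding of any factor, so a match is a description of the letters only.

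By their brightest probe sets, the calcineurin subunits and Nfatc3 had lower signals in marginal zone cells, and Itpr2 and Nfatc1 had higher ones. Itpr2 and Nfatc1 each also had a probe set above the floor on both arrays that lay on the other side. The other probe set of Ppp3cb did too, in a direction that the filter fixes. Of the 9 genes, 8 were measured, 3 higher and 5 lower in marginal zone cells by their brightest probe set. Past 2-fold were 0 genes on the higher side, where 4.39% of all measured genes lay, and 1 gene, Nfatc3, on the lower side, where 4.86% lay. Past 2-fold in either direction were thus 1 of 8 members, and 9.25% of all measured genes. At 1.5-fold, 2 members were higher (Itpr2 and Nfatc1), beside 13.7% of all measured genes, and 2 lower (Ppp3cb and Nfatc3), beside 15.8%. The median log2 ratio of the 8 genes was -0.21, beside -0.03 over all measured genes. By any amount, 47.8% of all measured genes were higher and 52.2% lower in marginal zone cells, so 5 lower of 8 members is near that background.

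**Figure D1:**
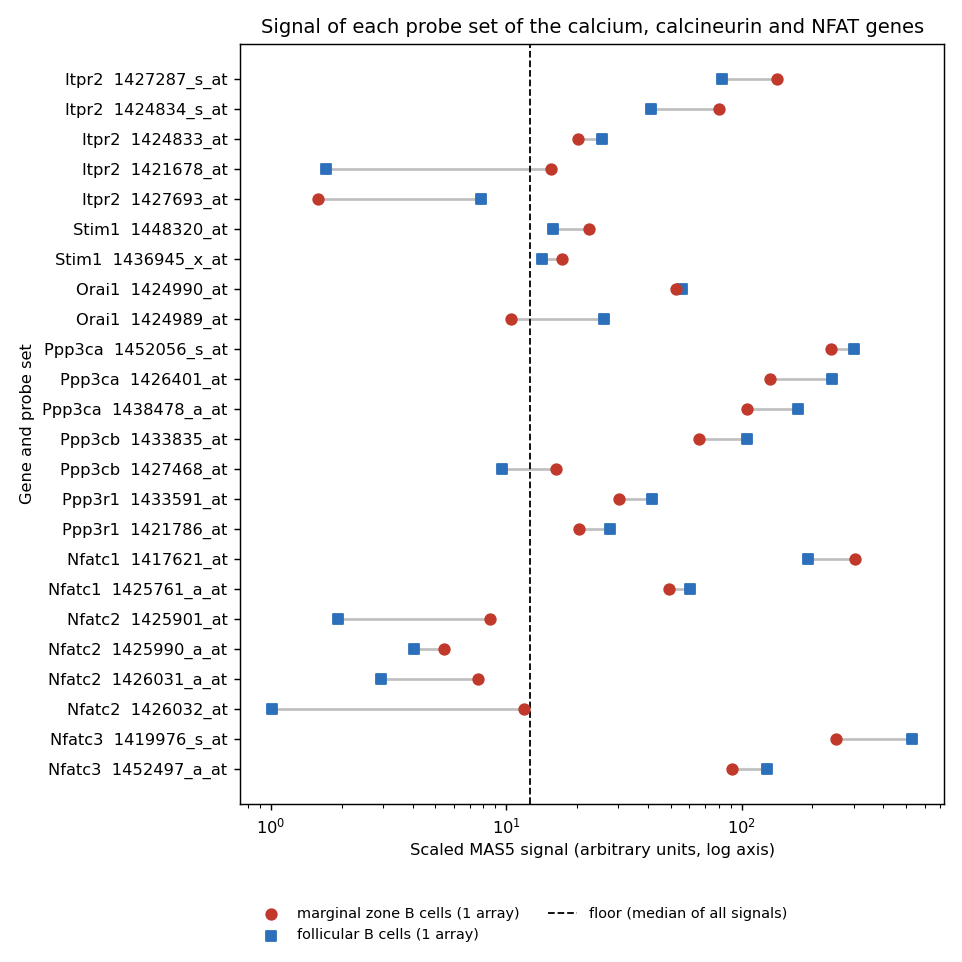
Scaled MAS5 signal on a log axis for each of the 24 probe sets, with marginal zone B cells as red circles and follicular B cells as blue squares, 1 array each, and the floor of 12.7 as a dashed line. All 7 probe sets of the calcineurin genes but 1 have the red circle to the left, and the 4 probe sets of Nfatc2 lie left of the floor on both arrays.

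Release from the store was represented by Itpr2, an inositol trisphosphate receptor of the endoplasmic reticulum. Its brightest probe set, 1427287_s_at, had a signal of 141.1 in marginal zone and 82.7 in follicular cells, 1.71-fold higher in marginal zone cells. Probe set 1424834_s_at was at 80.1 in marginal zone and 41.4 in follicular cells, 1.93-fold higher. These are the members' highest ratios, and 8.51% of measured genes had a ratio above that of the brightest probe set. Probe set 1424833_at was at 20.2 in marginal zone and 25.5 in follicular cells, a log2 ratio of -0.33 in the other direction. Of the dimmest, 1421678_at was at 15.4 in marginal zone cells and below the floor in follicular cells, at least 1.22-fold higher. Its direction follows from the filter, and 1427693_at was below the floor on both arrays. The probe sets that gave the higher ratios both carry the suffix _s_at, by which the manufacturer marks probe sets that can match several transcripts. Without probe sets of the suffixes _s_at and _x_at, an alternative chosen after seeing the data, the log2 ratio of Itpr2 turned to -0.33.

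Markers of macrophages and monocytes had higher signals in marginal zone than in follicular cells too. All 12 had a probe set and 8 were measured. Of these, 4 were above the floor on both arrays and all 4 were higher in marginal zone cells, where 47.8% of all measured genes were higher. The other 4 were above the floor in marginal zone cells only, so their direction follows from the filter. The summed signal of the brightest probe sets of all 12 was 211.7 in marginal zone and 105.0 in follicular cells. This sum takes in signals below the floor, so its size is not read. Of the markers above the floor on both arrays, Csf1r was at 42.5 in marginal zone and 17.3 in follicular cells. Lyz2 was at 25.2 in marginal zone and 12.9 in follicular cells, the latter close to the floor. Mrc1 was at 23.4 in marginal zone and 18.2 in follicular cells. Adgre1 was nearly equal, at 24.9 in marginal zone and 23.7 in follicular cells. C1qa, C1qc, Marco and Fcgr1 were not above the floor on either array. On the same list, 4 plasma cell markers were measured. Of these, 3 were above the floor on both arrays and all 3 were higher in marginal zone cells. The other, Sdc1, was above the floor in follicular cells only by its brightest probe set. NK cells, platelets and dendritic cells each had 1 marker above the floor on both arrays, dim and higher in marginal zone cells. The part of any of these cells in the higher signals of Itpr2 and Nfatc1 was not tested.

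The sensing and entry step showed no member past 2-fold by its brightest probe set. Stim1, the calcium sensor of the endoplasmic reticulum, was dim: probe set 1448320_at was at 22.5 in marginal zone and 15.9 in follicular cells, 1.42-fold higher in marginal zone cells. Its other probe set, 1436945_x_at, was at 17.2 and 14.1 in marginal zone and follicular cells, so both lay on the same side and close to the floor. Orai1, the pore subunit of the store-operated channel, was nearly equal by 1424990_at, at 52.8 in marginal zone and 56.1 in follicular cells, a log2 ratio of -0.09. Its dimmer probe set, 1424989_at, was at 10.5 in marginal zone cells, below the floor, and 26.1 in follicular cells, at least 2.06-fold lower in marginal zone cells. The dimmer Orai1 probe set passed the filter through the follicular array only, so its side follows from the filter. The direction of Orai1 therefore has no second reading.

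All 3 calcineurin genes were lower in marginal zone cells by their brightest probe sets, with log2 ratios from -0.68 to -0.34 and none past 2-fold. Ppp3ca encodes a catalytic subunit, the alpha isoform of calcineurin A. Probe set 1452056_s_at was at 239.0 in marginal zone and 302.1 in follicular cells, 1.26-fold lower in marginal zone cells. Probe set 1426401_at was at 131.8 in marginal zone and 242.3 in follicular cells, 1.84-fold lower. Probe set 1438478_a_at was at 105.8 in marginal zone and 174.1 in follicular cells, 1.65-fold lower. The 3 probe sets of Ppp3ca were on one side, and the brightest of them showed the smallest difference.

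Ppp3cb encodes the beta isoform of the catalytic subunit. Its brighter probe set, 1433835_at, was at 66.1 in marginal zone and 105.9 in follicular cells, 1.60-fold lower in marginal zone cells. The dimmer one, 1427468_at, was at 16.2 in marginal zone cells and below the floor in follicular cells, at least 1.28-fold higher. It passed the filter through the marginal zone array only, so its direction follows from the filter. The direction of Ppp3cb thus rests on 1 probe set. Ppp3r1, the regulatory B subunit that binds calcium, was at 30.3 in marginal zone and 41.8 in follicular cells by 1433591_at. Probe set 1421786_at gave 20.4 in marginal zone and 27.7 in follicular cells, and the probe sets of Ppp3r1 were 1.38-fold and 1.36-fold lower in marginal zone cells, the closest agreement among the members. Of the 7 probe sets of calcineurin genes 6 were lower in marginal zone cells, beside 52.2% of measured probe sets of all genes. The remaining one was 1427468_at, whose direction the filter fixes. These probe sets share their arrays and, within a gene, their transcript, so they are not independent measurements.

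**Figure D2:**
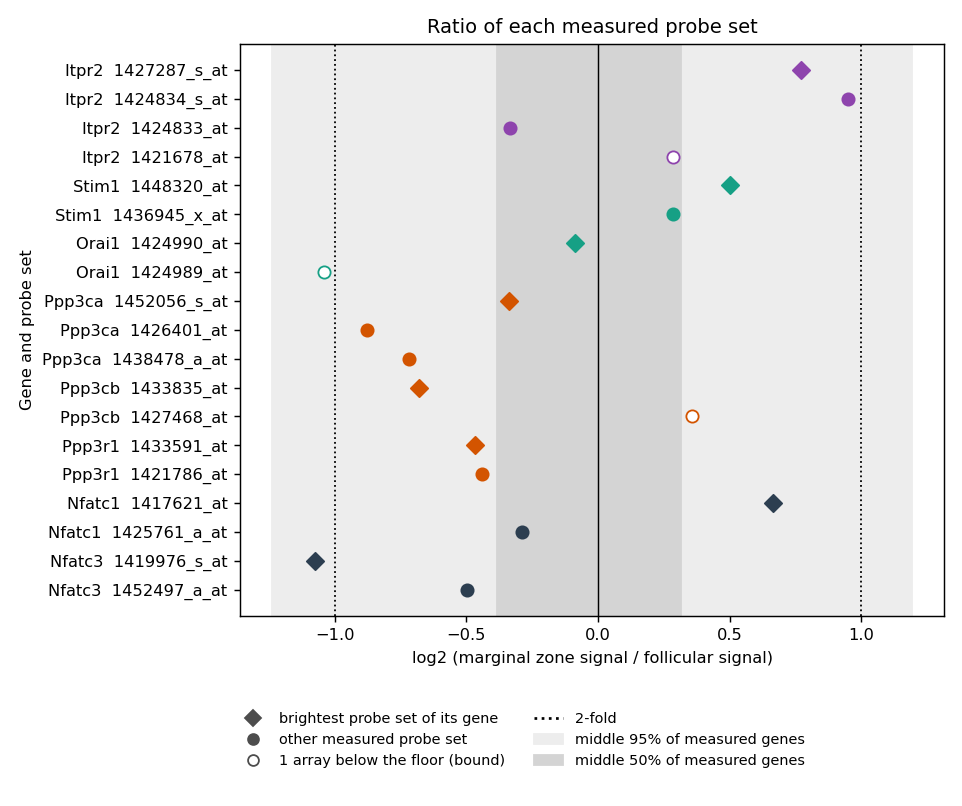
Ratio of the marginal zone signal to the follicular signal, as log2, for the 19 measured probe sets, coloured by role, with diamonds for the brightest probe set of each gene, open symbols where 1 array was below the floor, dotted lines at 2-fold and grey bands for the middle 50% and 95% of all measured genes. Every point lies within the band of the middle 95%, which runs from -1.24 to 1.19, and Itpr2, Ppp3cb and Nfatc1 have points on both sides of 0. The side of an open symbol follows from the filter.

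The NFAT factors differed among themselves. Nfatc3 was the member with the largest difference: probe set 1419976_s_at was at 252.7 in marginal zone and 532.8 in follicular cells, 2.11-fold lower in marginal zone cells, and 3.90% of measured genes had a lower ratio. Its other probe set, 1452497_a_at, was at 91.3 in marginal zone and 128.7 in follicular cells, 1.41-fold lower. Both probe sets were lower in marginal zone cells, but the 2-fold threshold was passed by 1, and without _s_at and _x_at probe sets the log2 ratio of Nfatc3 was -0.50. Nfatc1, a factor that NFAT proteins themselves can induce, was at 302.8 in marginal zone and 191.1 in follicular cells by 1417621_at, 1.58-fold higher in marginal zone cells. By 1425761_a_at it was at 49.2 in marginal zone and 60.1 in follicular cells, a log2 ratio of -0.29. The probe sets of Nfatc1 therefore disagreed in direction, and their mean log2 ratio was 0.19.

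Nfatc2, a factor well studied in T cells, was below the floor with all 4 probe sets. Signals ran from 5.4 to 11.9 in marginal zone and from 1.0 to 4.0 in follicular cells. All 4 were numerically higher in marginal zone cells, but values below the floor have no reliable order, and no fold is given.

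Markers of T cells, which also use calcineurin and NFAT, were near or below the floor on both arrays, apart from Zap70 in follicular cells. Of 10 markers 8 had a probe set and 3 were measured. The kinase Zap70, the 1 marker above the floor on both arrays, was at 20.0 in marginal zone and 47.2 in follicular cells. It was thus 2.36-fold lower in marginal zone cells, past the 2-fold threshold, and 2.50% of measured genes had a lower ratio. Cd3e was at 1.3 in marginal zone and 17.2 in follicular cells, and Cd4 at 2.0 in marginal zone and 13.9 in follicular cells. Cd3e and Cd4 passed the filter through the follicular array only, so their direction follows from it. The summed signal of the brightest probe sets of all 8 was 51.4 in marginal zone and 89.9 in follicular cells. It takes in signals below the floor, so its size is not read. Cd3d, Cd3g, Cd8a, Cd28 and Lat were not above the floor on either array. The part of T cells in the lower signals of Nfatc3 and the calcineurin genes was not tested.

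**Figure D3:**
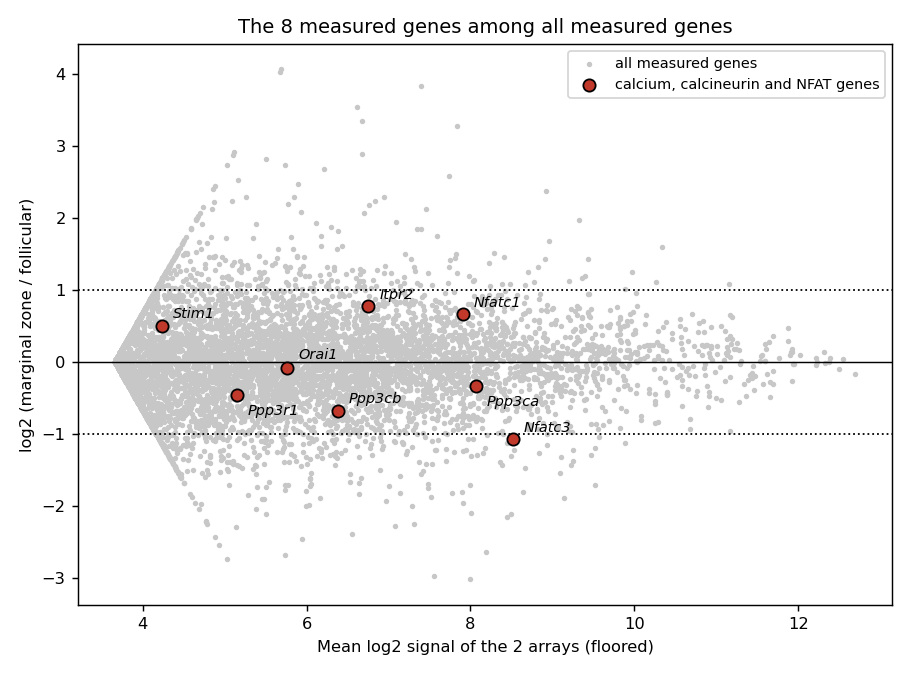
Ratio of the marginal zone signal to the follicular signal, as log2, against the mean log2 signal of both arrays, with all 7695 measured genes in grey, the 8 measured members in red and dotted lines at 2-fold. Nfatc3, at -1.08, lies just past the lower line, and the other 7 members lie between the lines within the cloud of all genes.

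Within genes, probe sets agreed about as often as elsewhere on the arrays. All 8 measured members had several measured probe sets, and in 5 of them all had the same sign: Stim1, Orai1, Ppp3ca, Ppp3r1 and Nfatc3. Over all 2622 genes with several measured probe sets that share was 59.3%. These counts take in probe sets above the floor on 1 array only, whose sign the filter fixes. Among the members, Itpr2, Orai1 and Ppp3cb each had such a probe set. Of the 19 measured probe sets of the members, 7 were higher and 12 lower in marginal zone cells. At least 2-fold higher were 0 and at least 2-fold lower 2, beside 4.36% and 5.02% of measured probe sets of all genes. The 2 were of Nfatc3 and Orai1, and the side of the Orai1 probe set follows from the filter.

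Paralogues of the members were also examined. Ppp3cc, the gamma isoform of the calcineurin catalytic subunit, was at 29.6 in marginal zone and 59.9 in follicular cells by its brighter probe set, 2.02-fold lower in marginal zone cells. Its other probe set had a log2 ratio of 0.36, in the other direction. Itpr3, the type 3 inositol trisphosphate receptor, was at 167.8 in marginal zone and 141.9 in follicular cells, 1.18-fold higher. Its ratio lay on the same side as that of Itpr2 and was smaller. Nfat5, a factor that responds to osmotic stress and does not depend on calcineurin, was at 42.2 in marginal zone and 38.5 in follicular cells by its 1 measured probe set. Nfatc4, by its 1 measured probe set of 4, was at 16.4 in marginal zone cells and below the floor in follicular cells. That is at least 1.30-fold higher, in a direction that follows from the filter. Ppp3r2, Stim2, Orai2 and Orai3 were not analysed here.

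A wider list of 65 genes around this pathway had 44 with a probe set and 38 measured. Of the 38, 0 were at least 2-fold higher and 2 at least 2-fold lower in marginal zone cells, and the median log2 ratio was -0.05, beside -0.03 over all measured genes. Among all measured genes 4.39% were at least 2-fold higher and 4.86% at least 2-fold lower, so both counts are near or under that background. Of the 38, 4 were above the floor in marginal zone cells only and 3 in follicular cells only. The genes past the threshold were Ppp3cc and Camkk2. Camkk2, a calmodulin-dependent kinase that phosphorylates other kinases, was at 51.4 in marginal zone and 125.3 in follicular cells, 2.44-fold lower. Its other measured probe set was below the floor in marginal zone cells and at 13.4 in follicular cells. The log2 ratio of that dimmer probe set was -0.09, so the size rests on 1 probe set. Camk2g, the gamma isoform of calmodulin-dependent kinase II, was below the floor in marginal zone cells and at 23.6 in follicular cells, at least 1.87-fold lower. With the mean of all measured probe sets in place of the brightest one, 0 genes of this list were past 2-fold on the lower side.

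On the higher side of the wider list, Crtc2, a CREB coactivator that calcineurin can dephosphorylate, was at 33.2 in marginal zone and 17.4 in follicular cells, 1.91-fold higher in marginal zone cells. Fkbp1a, which encodes FKBP12, the protein through which the drug FK506 inhibits calcineurin, was at 474.4 in marginal zone and 258.4 in follicular cells, 1.84-fold higher. Its 5 measured probe sets ran from -0.23 to 1.04 on the log2 ratio scale. Vdac1, a channel of the outer mitochondrial membrane, was at 343.8 in marginal zone and 213.1 in follicular cells, 1.61-fold higher, with 4 measured probe sets from 0.69 to 1.11. None of these was past 2-fold by its brightest probe set.

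By role, the groups of the wider list were small and mostly mixed. Of 7 measured genes that phosphorylate NFAT or export it from the nucleus, all above the floor on both arrays, 5 were lower in marginal zone cells and 0 past 2-fold. Of 8 calmodulin-dependent kinases and other calcium-responsive factors, 6 were above the floor on both arrays, 4 of them lower in marginal zone cells. Of 8 genes of entry and other channels, 5 were above the floor on both arrays, 4 of them higher. Over all measured genes 52.2% were lower and 47.8% higher, and counts this small cannot be set apart from those shares. Upstream of the store, Btk, Plcg2 and Blnk, named here for their place between the antigen receptor and inositol trisphosphate after their values were seen, had log2 ratios of -0.59, -0.24 and 0.14.

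**Figure D4:**
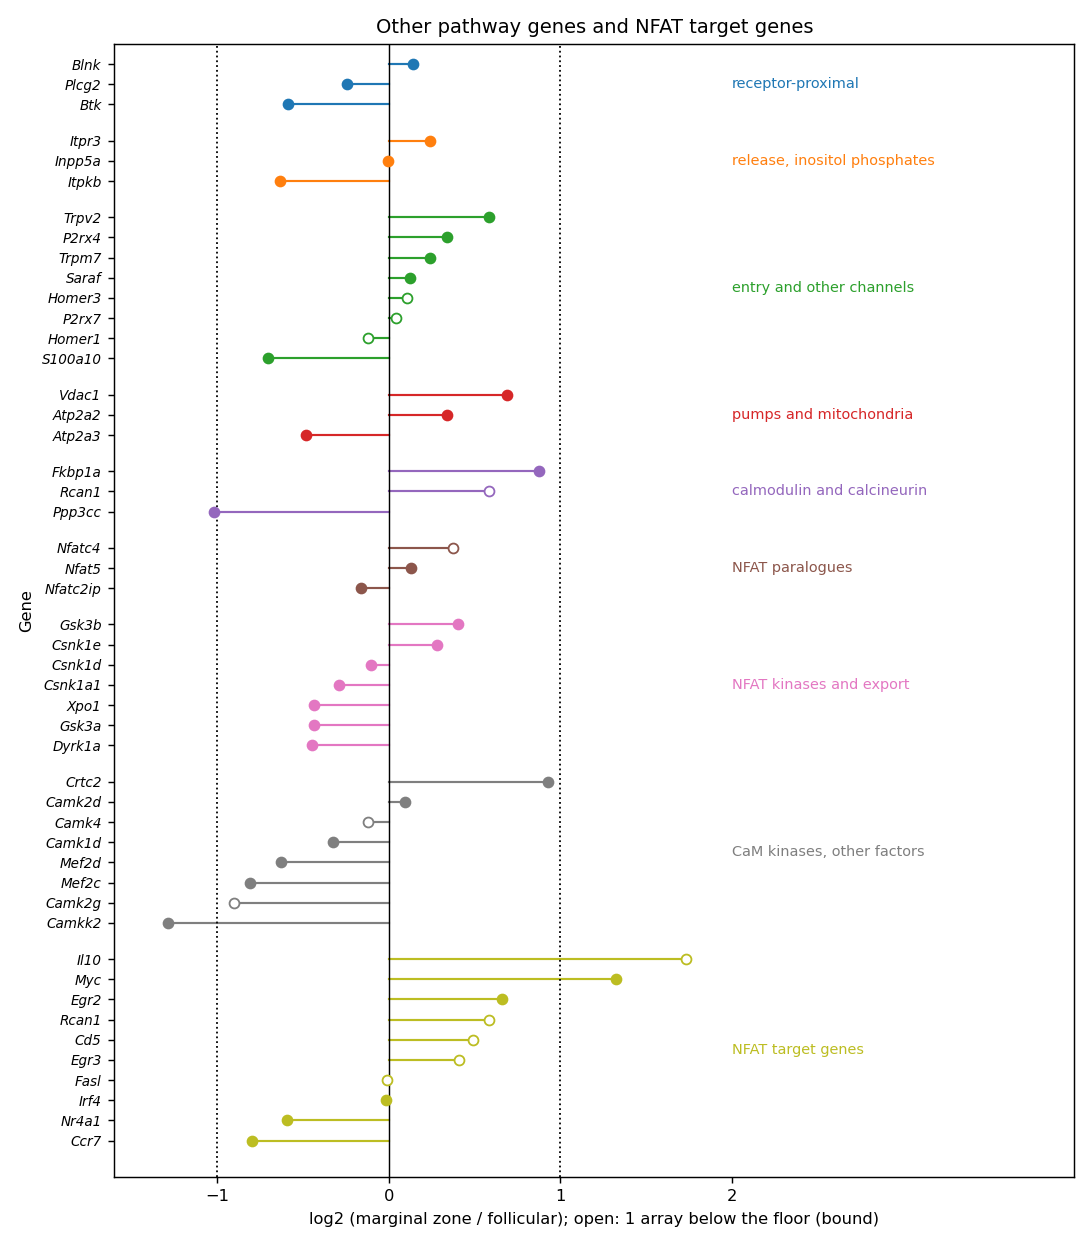
Ratio of the marginal zone signal to the follicular signal, as log2, for the 38 measured genes of the wider pathway list, by role, and the 10 measured NFAT target genes, with open symbols where 1 array was below the floor and dotted lines at 2-fold; Rcan1 is in both lists. Camkk2 at -1.29 and Ppp3cc at -1.02 lie past the lower line, and Il10 at 1.73 and Myc at 1.32 past the upper line.

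Of 15 genes with a probe set that are known as targets of NFAT or calcineurin in lymphocytes, 10 were measured. Above the floor on both arrays were 5, with 2 higher and 3 lower in marginal zone cells. In marginal zone cells only 4 were above the floor, which fixes their direction, and in follicular cells only 1, so no median is given. Of the 10, 2 were at least 2-fold higher and 0 at least 2-fold lower in marginal zone cells, beside 4.39% and 4.86% of all measured genes. Of these 2, Il10 is among the 4 whose direction the filter fixes, and Myc was above the floor on both arrays. A count this small cannot be set apart from those shares. Il10, an interleukin made by some B cells, was at 42.2 in marginal zone cells and below the floor in follicular cells, at least 3.33-fold higher. Myc, a growth regulator, was at 196.8 in marginal zone and 78.6 in follicular cells, 2.50-fold higher. Each had 1 probe set, so neither has a second reading on these arrays.

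Egr2, an early growth response factor, was at 310.4 in marginal zone and 195.9 in follicular cells, 1.58-fold higher, and its other probe set was also higher, at a log2 ratio of 0.30. Ccr7, a chemokine receptor of lymph node homing, was at 172.2 in marginal zone and 299.1 in follicular cells, 1.74-fold lower in marginal zone cells. Nr4a1, an immediate-early nuclear receptor, was at 213.5 in marginal zone and 321.5 in follicular cells, 1.51-fold lower. Irf4 was nearly equal, at 527.1 in marginal zone and 532.4 in follicular cells. Rcan1, a calcineurin regulator that is itself an NFAT target, was picked with its values already seen. It was at 19.0 in marginal zone cells and below the floor in follicular cells, at least 1.5-fold higher, and its other probe set had a log2 ratio of -0.17. All of these genes have other regulators as well, and the arrays do not measure which one acts.

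**Figure D5:**
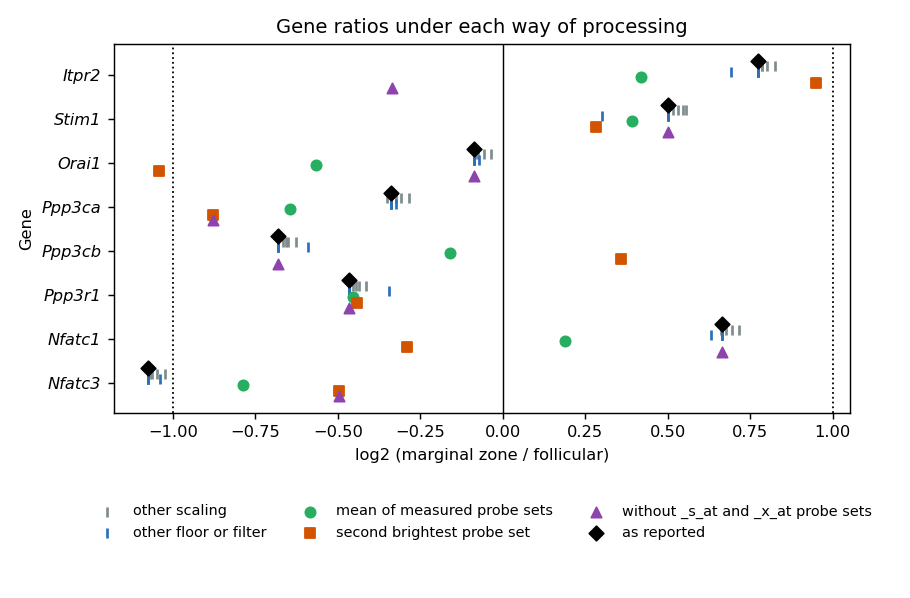
Ratio of the marginal zone signal to the follicular signal, as log2, of the 8 measured members as reported (black diamonds) and under each alternative scaling, floor or filter and choice of probe set, with dotted lines at 2-fold. Other scalings, floors and filters move no point across 0, and the choice of probe set moves Itpr2, Ppp3cb and Nfatc1 across 0. For Ppp3cb the point across 0 is of a probe set whose direction the filter fixes.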

How the data were processed

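Gene expression was measured in 2 samples, 1 array of marginal zone and 1 of follicular B cells, from about 100 ng of total RNA with a 2-cycle biotin labelling, per the labels' protocols. Each deposited value is an intensity on a linear scale, 1 for every probe set and array, made with MAS5 per the submitters' processing notes. Of the MAS5 run, the sources used here give neither version nor scaling target nor detection calls. Deposited medians were 12.6 for marginal zone and 12.8 for follicular cells over 22626 probe sets.

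Each array was scaled to the same mean after trimming 2% at each end, by factors of 0.990 for marginal zone and 1.01 for follicular cells, and signals below 12.7, the median of all scaled values, were raised to it. Gene names came from the annotation table of the platform, which gives 1 gene for 20380 probe sets and several for 691, and does not list 1555. The value of a gene is that of its brightest measured probe set, by mean log2 signal. The members and lists were chosen with earlier results of these data known. Genes named beyond the members are the paralogues, those past 2-fold and, in each list, the 3 highest and 3 lowest ratios, with cell type markers from a fixed list. Any other gene is marked. Promoter windows come from RefSeq (GRCm38.p6). The procedure was tested on simulated data, with planted changes larger than any member's difference and only in genes with a bright probe set. That test does not bear on differences as small, or genes as dim, as those of the members. Python 3.11.15, numpy 2.4.6 and pandas 2.3.3 were used. Alternatives covered scaling, floor, filter, threshold and probe set choice.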

Additional observations from a re-analysis of the deposited data

How the results depend on the processing

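Under the alternatives for scaling, floor, filter and probe set, the median log2 ratio of the members stayed between -0.40 and -0.09. None of the 4 other scalings turned the sign of a member. With the second brightest probe set, Ppp3cb turned to 0.36 and Nfatc1 to -0.29. That Ppp3cb probe set was above the floor in marginal zone cells only, so its direction follows from the filter. Nfatc3 passed 2-fold under 10 of 13 settings, all of which used the same probe set, 1419976_s_at. Each setting that changed the probe set left it short of 2-fold. Its log2 ratio was -0.79 with the mean of measured probe sets. With the second brightest probe set, and without _s_at and _x_at probe sets, it was -0.50. The 1 member at least 2-fold lower with the second brightest probe set was Orai1, at -1.04, by a probe set whose side the filter fixes. The count of members at least 2-fold lower, 1 as reported, was 0 with the mean of measured probe sets, 0 at 3-fold, 0 without _s_at and _x_at probe sets and 2 at 1.5-fold. The count at least 2-fold higher, 0 as reported, was 2 at 1.5-fold and 1 with the floor at the 25th percentile, where Nfatc2 entered at 1.63. Its follicular signal was below that lower floor too. The direction of Nfatc2 there follows from the filter, and its size is not read.

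For the wider list, 0 higher became 2 with the floor at the 25th percentile, 3 with unfloored ratios, 4 at 1.5-fold and 1 without _s_at and _x_at probe sets. There, 2 lower became 1 with no scaling, with equal medians, with the floor at the 75th percentile and with a pseudocount, 0 with the mean of probe sets and at 3-fold, 8 at 1.5-fold, and 3 with the floor at the 25th percentile and with unfloored ratios. For NFAT targets, 2 higher became 4 with the floor at the 25th percentile, with unfloored ratios and at 1.5-fold, 1 with the floor at the 75th percentile and at 3-fold, and 0 with the second brightest probe set, which only 3 of these genes had. There, 0 lower became 1 with the floor at the 25th percentile and 2 at 1.5-fold. The causes were not tested, beyond the change in the genes and thresholds that each setting makes. No paired analysis was possible with 1 array per population, and the labels do not state whether the same animals gave both. Signals near the floor, as for Stim1, limit what can be read from the dim members.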

Other observations

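Mef2c, a transcription factor of B cells that responds to calcium and that calcineurin can act on, was chosen after its values were seen. By its brightest probe set it was at 818.8 in marginal zone and 1433 in follicular cells, 1.75-fold lower in marginal zone cells. All 5 of its probe sets were lower there, with log2 ratios from -1.14 to -0.61. Its relative Mef2d was at 321.1 in marginal zone and 495.6 in follicular cells, 1.54-fold lower, but a dimmer probe set had a log2 ratio of 0.67. That dimmer probe set was above the floor in marginal zone cells only, which fixes its direction. Dyrk1a, a kinase that phosphorylates NFAT, was lower in marginal zone cells by all 3 of its probe sets, from -0.56 to -0.15. The one at -0.56 was above the floor in follicular cells only, which fixes its direction. Mef2d and Dyrk1a were likewise chosen after their values were seen.

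The store pumps, which return calcium to the endoplasmic reticulum, lay on different sides, and were also chosen after their values were seen. Atp2a2, which encodes SERCA2, was at 472.4 in marginal zone and 373.8 in follicular cells, 1.26-fold higher in marginal zone cells, with 4 probe sets from -0.14 to 0.94 on the log2 ratio scale. Atp2a3, which encodes SERCA3, was at 71.9 in marginal zone and 100.2 in follicular cells, 1.40-fold lower. Itpkb, a kinase that converts inositol trisphosphate, was likewise picked with its values already seen. It was at 60.2 in marginal zone and 93.4 in follicular cells, 1.55-fold lower. None of these differences was past 2-fold by the brightest probe set, and none has a replicate check.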
